A study of Mus musculus with 12 samples.

Results

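The genes described here are 8 receptor tyrosine kinases of the ErbB, FGF and IGF receptor families: Egfr, Erbb2, Erbb3, Erbb4, Fgfr1, Fgfr2, Fgfr3 and Igf1r. They are given as a list of names, with no threshold on their values. Each symbol stood in 1 row, so the receptors are 8 of the 23548 distinct rows of the expression table. All 8 passed the filter on low values and were among the 14115 rows tested, those with a mean of at least 0.5 FPKM (sequenced fragments of a gene, divided by the length of its transcript and by the mapped total of the library) over the 12 libraries.

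The cortex of 12 C57BL/6 mice, taken at postnatal day 16, was sequenced (RNA-seq, 4 groups, 3 per group). Dnmt1 CKO mice (Olig1cre/+;Dnmt1flox/flox) were compared with littermate controls (Olig1+/+;Dnmt1flox/flox), and Dnmt3a CKO mice (Olig1cre/+;Dnmt3aflox/flox) with theirs (Olig1+/+;Dnmt3aflox/flox). All mice thus carried floxed alleles of the gene of their line. Only the CKO mice carried cre, as 1 allele of the Olig1 locus, which is active in the oligodendrocyte lineage. Within each line, loss of the floxed gene therefore cannot be told apart from cre itself or from the changed Olig1 allele. The knockout effect named below holds all of these. The study made these mice to ask whether the maintenance DNA methyltransferase Dnmt1 and the de novo DNA methyltransferase Dnmt3a act on oligodendrocyte genes, and the whole cortex, with all of its cell types, was sequenced.

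Receptor tyrosine kinases bind a ligand outside the cell, pair up and phosphorylate each other and adaptor proteins inside, which feeds the RAS-ERK and the PI3K-AKT-mTOR cascades. ErbB3 and ErbB4 bind neuregulins, ErbB3 has little kinase activity of its own and signals with a partner such as ErbB2, and the FGF receptors bind fibroblast growth factors together with heparan sulfate. In the brain these pathways are known for acting on the oligodendrocyte lineage and on myelin growth (Erbb3, Fgfr1, Fgfr2, Igf1r), on astrocytes (Fgfr3, Egfr) and on inhibitory interneurons (Erbb4).

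DNA methyltransferases act mainly on CpG, a C followed by a G, which reads the same on both strands. RefSeq (GRCm38.p6) gave promoter windows, here 250 bases before to 50 bases after an annotated start, for 6 of the 8 receptors, with 7 entries in all, and none for Erbb3 and Fgfr1. The Fgfr2 window, at chr7:130266759-130267058 on the minus strand, is shown because Fgfr2 is the called receptor with an entry. The Fgfr3 window at chr5:33721474-33721773 on the plus strand is shown beside it because it holds more transcript starts of GENCODE than any other of the 7. Both are written 5′ to 3′ on the strand of the gene, with each CpG in capitals.
Fgfr2: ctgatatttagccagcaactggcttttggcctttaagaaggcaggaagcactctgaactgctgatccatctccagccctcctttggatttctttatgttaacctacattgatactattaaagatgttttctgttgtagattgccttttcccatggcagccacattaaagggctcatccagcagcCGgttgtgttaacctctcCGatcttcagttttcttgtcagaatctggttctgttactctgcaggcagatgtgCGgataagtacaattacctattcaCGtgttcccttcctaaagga
Fgfr3: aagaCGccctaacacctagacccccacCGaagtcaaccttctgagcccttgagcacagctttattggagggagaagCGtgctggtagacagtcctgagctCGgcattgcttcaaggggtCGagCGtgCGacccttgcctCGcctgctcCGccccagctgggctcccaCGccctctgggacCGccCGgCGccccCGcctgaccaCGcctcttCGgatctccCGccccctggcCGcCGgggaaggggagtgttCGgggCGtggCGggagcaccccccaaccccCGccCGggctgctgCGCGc
The Fgfr2 window held 4 CpG, and 31.4% of the 32851 promoters in the table had fewer. It belongs to 1 RefSeq start only, since none of the 27 GENCODE transcripts of Fgfr2 starts in it and 13 of them start at 130261857, further along the gene. The Fgfr3 window held 26 CpG, more than 83.1% of the promoters, and 4 of 17 transcripts start in it. The other entries held 15 CpG (Egfr), 17 (Erbb4), 21 (Erbb2), 30 (Fgfr3) and 48 (Igf1r, with none of its 6 transcripts starting in the window). Over all promoters the median was 7, the quartiles were 3 and 20, and 94.6% held at least 1 CpG. These counts describe the sequence only, since methylation of these windows was not analysed here.

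The libraries were checked against their labels before the receptors were compared. In the Dnmt1 line, Dnmt1 itself ranged from 9.78 to 10.6 FPKM among controls and from 7.26 to 9.11 among CKO libraries. For Dnmt3a the CKO of its line had 13.6 to 15.4 FPKM, the libraries labelled Dnmt3a control replicates 1 and 3 had 31.1 and 28.7, but the library labelled Dnmt3a control replicate 2 had only 16.9. Olig1, the cre locus, was at 49.8 FPKM in this library, beside 48.4 and 44.1 in replicates 1 and 3 of its group and 30.6 to 38.8 in the CKO of the line, so on this locus it went with its label. Results that rest on this library are therefore also given without it. Xist was at 46.2 to 49.4 FPKM in the third library of 3 groups and under 0.1 in the other libraries of those groups. It was between 1.69 and 1.85 in all 3 Dnmt1 CKO libraries. The labels do not give the sex of the mice, so these levels could not be set beside it. All 8 neuronal markers were expressed in every group, with a sum of 1917 to 2091 FPKM per library, while the sum of 5 choroid plexus markers varied from 2.50 to 417. The relative depth of the libraries, read from the steps between low values, was 85.6% to 100% of the deepest one. Absolute read numbers are not given, so counting error could not be put beside the values.

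Among the 8 receptors, Fgfr3 had the highest level and Erbb2 the lowest. FPKM is per length, so genes can be compared on this scale. The mean level over the 12 libraries was 22.4 FPKM for Fgfr3, 10.5 for Fgfr1, 6.58 for Erbb4, 5.73 for Igf1r, 4.91 for Fgfr2, 2.45 for Egfr, 2.04 for Erbb3 and 0.527 for Erbb2. Fgfr3 stood above 79.5% of the rows tested and Erbb2 above 0.673%, just past the filter.

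**Figure D1:**
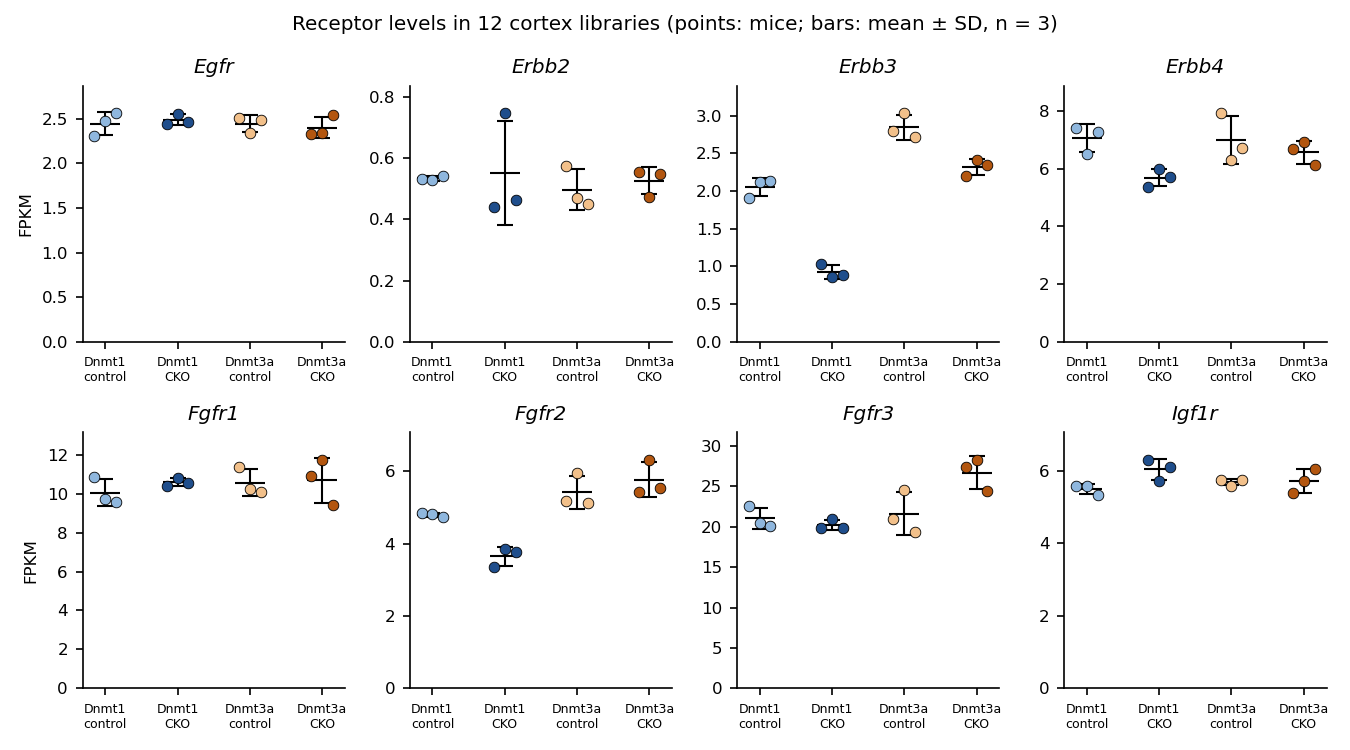
Level of each receptor in FPKM (y axis, from 0) in the 12 libraries, by group (x axis); points are mice and bars show the mean and SD of 3. Erbb3 in the Dnmt1 CKO sat between 0.856 and 1.03, under every other library, and Fgfr2 in the Dnmt1 CKO sat between 3.35 and 3.84, also under every other library.

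In the Dnmt1 line, 2 of the 8 receptors fell and none rose at an FDR of 10%. Erbb3 fell to 45.0% of the control level and Fgfr2 to 76.1%. The other 6 did not pass, although Erbb4 was lower, and Igf1r higher, in all 3 CKO libraries than in all 3 controls. Over all 14115 rows tested with limma, 3.15% were called in this comparison, 2.3% as lower and 0.85% as higher. The median log2 fold change was -0.02 over the 8 receptors and also -0.02 over all rows.

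In the Dnmt3a line, none of the 8 receptors passed an FDR of 10% with limma, where 0.0142% of all rows did. Dnmt3a itself, the deleted gene, did not pass either, with a log2 fold change of -0.78 (limma adjusted p = 0.66, n = 3 and 3). Dnmt1 also did not pass in the Dnmt1 line (-0.27, limma adjusted p = 0.29, n = 3 and 3). A receptor that was not called is thus not shown to be unchanged. At an unadjusted p under 0.05 stood 2 receptors, Erbb3 with a lower and Fgfr3 with a higher level in the CKO, against 7.35% of all rows. The CKO and control ranges were apart for 1 of the 8 receptors, Erbb3, against 12.8% of all rows. The same count in the Dnmt1 line was 4 of 8 (Erbb3, Erbb4, Fgfr2 and Igf1r) against 20.8% of all rows.

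The effect of the knockout differed between the lines for 2 of the 8 receptors, again Erbb3 and Fgfr2, both with the lower value in the Dnmt1 line. This was tested with limma as an interaction over all 12 libraries, in which 2.13% of all rows were called, 1.83% with the lower and 0.298% with the higher value in the Dnmt1 line. The comparisons share libraries, so this test and the test within the Dnmt1 line are not independent of each other.

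**Figure D2:**
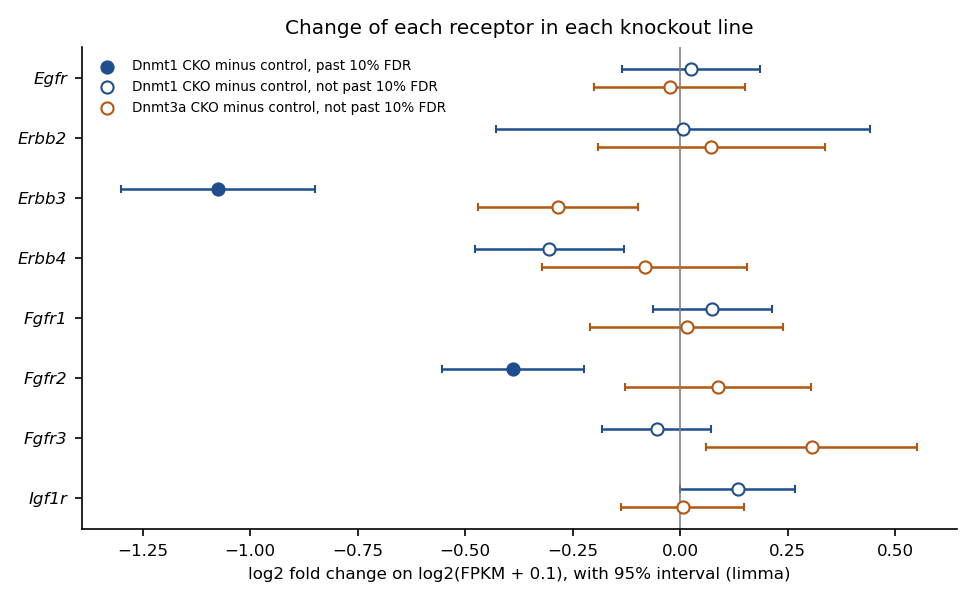
Log2 fold change of each receptor, CKO minus control, on the log2(FPKM + 0.1) scale (x axis) in the Dnmt1 line (blue) and the Dnmt3a line (orange), with its 95% interval from limma; filled points passed an FDR of 10%. Erbb3 at -1.07 and Fgfr2 at -0.39 in the Dnmt1 line are the filled points.

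Erbb3 encodes the neuregulin receptor that depends on a partner kinase. It lies on chromosome 10 at 128567523 to 128589652 (GRCm38, minus strand) and has 1 annotated transcript of 28 exons, none of which overlaps an exon of another gene. Control libraries of the Dnmt1 line had 1.91, 2.12 and 2.13 FPKM, and CKO libraries had 1.03, 0.856 and 0.889. Every CKO library was thus under every control. On the log2 scale this was a fold change of -1.07 (SE 0.09, limma adjusted p = 0.0051, n = 3 and 3). It kept this call in all 19 alternative analyses, with values from -1.15 to -0.67. Because whole cortex was sequenced, fewer cells of a type and less RNA per cell cannot be told apart here or in any result that follows.

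For the same gene the Dnmt3a control libraries had 2.79, 3.03 and 2.72 FPKM, and the Dnmt3a CKO libraries 2.19, 2.41 and 2.35. These ranges did not overlap either, and the CKO mean was 81.5% of the control mean. A log2 fold change of -0.28 (SE 0.08) had an unadjusted p of 0.0097 but a limma adjusted p of 0.66 among all rows (n = 3 and 3). Without the library labelled Dnmt3a control replicate 2 it was -0.24. The effect was larger in the Dnmt1 line by a log2 difference of -0.79 (SE 0.12, limma adjusted p = 0.0060), called in all 24 alternatives. An exact permutation test of 3 against 3 libraries cannot give a p under 0.1, which is the value it gave for Erbb3 in each line.

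For Erbb3, alone among the 8 receptors, the ranges were apart at every step when the 4 groups were ordered by their means. How many of all rows do so was not counted. Its levels were 0.925 ± 0.093 FPKM (SD, n = 3) for Dnmt1 CKO, 2.05 ± 0.12 for Dnmt1 control, 2.32 ± 0.11 for Dnmt3a CKO and 2.85 ± 0.16 for Dnmt3a control. The controls of the lines therefore differed as well, and what else sets the lines apart cannot be told apart from the floxed gene. Erbb3 made up 17.0% ± 1.3 of the summed ErbB receptor FPKM in Dnmt1 control libraries and 9.61% ± 1.35 in those of the CKO, against 22.4% ± 2.4 and 19.6% ± 0.9 in the Dnmt3a line.

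Markers of the oligodendrocyte lineage moved with Erbb3 in the Dnmt1 line. All 12 markers of myelinating oligodendrocytes fell (median log2 fold change -1.95), and their sum went from 1983 to 2306 FPKM in the controls to 585 to 681 in the CKO. All 5 markers of the whole lineage fell (median -0.74), with sums of 81.1 to 93.3 and 44.2 to 51.7. Much of this sum is Olig1, the cre locus, and the other 4 markers, which all fell (median -0.64), had sums of 39.2 to 42.4 and 25.9 to 29.7. Of 10 progenitor markers 3 fell (median -0.16), with sums of 115 to 128 and 98.8 to 104. The change of Erbb3 lay between the medians of the myelinating and the whole-lineage markers. It was inside the range of the whole-lineage markers, -1.19 to -0.43, of which Olig1 was the lowest. No marker of these 3 lists was at 0 in any group, and the part of these cells in the result was not tested.

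No marker of the 3 lists was called in the Dnmt3a line. The summed myelinating markers ranged from 2522 to 3008 FPKM among these controls and from 2751 to 3136 among CKO libraries, so they did not go down with Erbb3 there. The 4 whole-lineage markers other than Olig1 had sums of 38.5 to 42.8 FPKM in the controls and 40.7 to 45.8 with cre, so they did not go down either. With Olig1, the cre locus, the sums were 82.6 to 92.6 and 72.9 to 84.5. Olig1 itself had a log2 fold change of -0.49 (limma adjusted p = 0.66, n = 3 and 3). The progenitor markers had sums of 109 to 119 in the controls and 113 to 121 in the CKO. The part of all these markers in the Erbb3 values was not tested.

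Erbb4, the neuregulin receptor with its own kinase activity (chromosome 1, 68032186 to 69108059, minus strand), had 7.42, 6.503 and 7.26 FPKM in Dnmt1 control and 5.38, 6.00 and 5.70 in Dnmt1 CKO libraries. All 3 CKO libraries were under the controls, at 80.7% of their mean. Its log2 fold change of -0.30 (SE 0.07, 95% interval -0.48 to -0.13) did not pass (limma adjusted p = 0.13, n = 3 and 3), and it passed only with robust variance estimates, at an adjusted p of 0.063. Levels in the Dnmt3a line were 7.92, 6.32 and 6.72 (control) and 6.67, 6.92 and 6.12 (CKO). These overlapped, with a log2 fold change of -0.08 (95% interval -0.32 to 0.16). The log2 difference between the lines, -0.22 (95% interval -0.49 to 0.04), did not pass.

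Erbb4 is also a marker of inhibitory interneurons. Of the other 7 interneuron markers, 1 was called in the Dnmt1 line, Pvalb, a calcium-binding protein of fast-spiking cells, at a log2 fold change of -0.27 (SE 0.06, limma adjusted p = 0.098, n = 3 and 3). Their summed level overlapped, with 405 to 444 FPKM in the controls and 384 to 432 in the CKO. In the Dnmt3a line 0 of the 7 were called, with sums of 397 to 429 FPKM in the controls and 437 to 484 in the CKO. Pvalb was higher in the Dnmt3a CKO, by 0.43 (limma adjusted p = 0.66, n = 3 and 3). Its difference between the lines, -0.70 (SE 0.10, limma adjusted p = 0.0057), passed. The part of these cells in the Erbb4 values was not tested. Erbb4 held 54.6% to 58.9% of the summed ErbB FPKM in all 4 groups.

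Erbb2, the ErbB receptor without a ligand of its own and the usual partner of Erbb3 (chromosome 11, 98412470 to 98437716, plus strand), had 0.533, 0.527 and 0.541 FPKM in Dnmt1 control and 0.440, 0.746 and 0.465 in Dnmt1 CKO libraries. CKO replicate 2 was above the controls and the other CKO libraries were under them. A log2 fold change of 0.01 had a wide 95% interval, from -0.43 to 0.44, and without this library it was -0.20. Levels in the Dnmt3a line were 0.575, 0.469 and 0.449 (control) and 0.556, 0.475 and 0.550 (CKO; log2 fold change 0.07, 95% interval -0.19 to 0.34). In the Dnmt1 line, a change of this gene of the size seen for Fgfr2 could not be told from no change.

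Egfr, the receptor of EGF and related ligands (chromosome 11, 16752203 to 16918158, plus strand), varied little. Dnmt1 control libraries had 2.31, 2.48 and 2.56 FPKM and Dnmt1 CKO libraries 2.44, 2.56 and 2.47. The Dnmt3a line had 2.51, 2.34 and 2.49 (control) and 2.33, 2.34 and 2.54 (CKO). Its ranges overlapped at every step in the order of the groups. Log2 fold changes were 0.02 (95% interval -0.14 to 0.19) in the Dnmt1 line and -0.02 (95% interval -0.20 to 0.15) in the Dnmt3a line. With Erbb3 and Erbb4 at lower values, the share of Egfr in the summed ErbB FPKM was 25.8% ± 0.6 in the Dnmt1 CKO against 20.2% ± 1.2 in its controls, while the sum was 9.66 ± 0.44 FPKM against 12.1 ± 0.4.

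Fgfr2, one of the FGF receptors of the oligodendrocyte lineage, was called in the Dnmt1 line. It is annotated on chromosome 7 at 130162451 to 133123350 (minus strand), and 3.04% of its exon bases overlap exons of Ctbp2 on the same strand. Its levels were 4.84, 4.82 and 4.74 FPKM (control) and 3.35, 3.84 and 3.76 (CKO). No CKO library reached the range of the controls, and the controls lay closer to each other than the CKO libraries did. Its log2 fold change was -0.39 (SE 0.07, limma adjusted p = 0.060, n = 3 and 3). This call did not hold when any 1 of the 6 libraries was left out. Limma adjusted p was then from 0.12 to 0.22 and log2 fold changes from -0.43 to -0.33. With the level of Xist as a covariate the log2 fold change was still -0.39, but the call was lost (limma adjusted p = 0.11).

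Fgfr2 levels in the Dnmt3a line were 5.18, 5.94 and 5.13 FPKM (control) and 5.44, 6.31 and 5.54 (CKO). The ranges overlapped, with a log2 fold change of 0.09 (95% interval -0.13 to 0.30). The knockout effects differed by -0.48 (SE 0.11, limma adjusted p = 0.060). Without the library labelled Dnmt3a control replicate 2 the difference was -0.54 with an adjusted p of 0.034. It was lost without any 1 of 8 other libraries, at adjusted p of up to 0.17: all 3 Dnmt1 controls, Dnmt1 CKO replicates 1 and 3, Dnmt3a controls 1 and 3 and Dnmt3a CKO replicate 2.

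**Figure D3:**
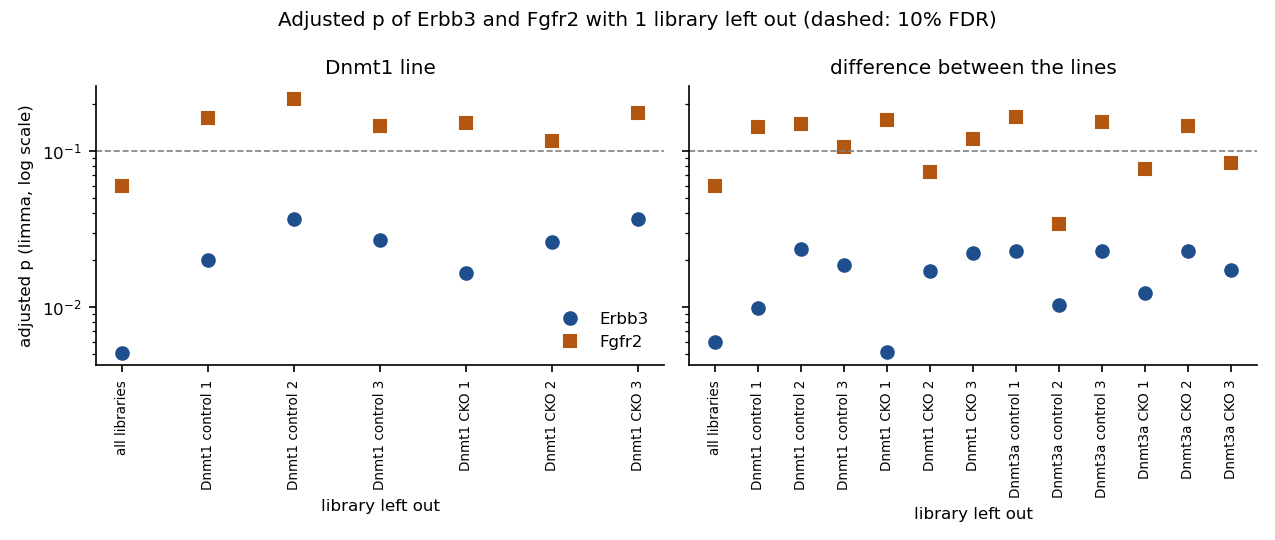
Adjusted p from limma (y axis, log scale) for Erbb3 (circles) and Fgfr2 (squares) with all libraries and with 1 library left out (x axis), in the Dnmt1 line (left) and for the difference between the lines (right); the dashed line marks an FDR of 10%. Erbb3 stayed under the line throughout, with at most 0.037 on the left and 0.024 on the right, while Fgfr2 was above it for all 6 libraries on the left and for 8 of 12 on the right.

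Fgfr3, a receptor found mainly on astrocytes in the cortex, had a larger change in the Dnmt3a line than in the Dnmt1 line but was called in neither. It lies on chromosome 5 at 33721674 to 33737068 (plus strand), and 13.9% of its exon bases overlap a gene on the opposite strand. Since the use of strand in the quantification is not stated, reads of these parts cannot be told apart. Dnmt3a control libraries had 20.9, 24.6 and 19.4 FPKM and Dnmt3a CKO libraries 27.4, 28.3 and 24.4. Only the library labelled control replicate 2 reached into the range of the CKO. Its log2 fold change of 0.31 (SE 0.10) had an unadjusted p of 0.023 and a limma adjusted p of 0.66 (n = 3 and 3), and without that library it was 0.40, with an adjusted p of 0.71.

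Fgfr3 levels in the Dnmt1 line were 22.6, 20.5 and 20.1 FPKM (control) and 19.9, 20.96 and 19.8 (CKO). These overlapped, with a log2 fold change of -0.05 (95% interval -0.18 to 0.07). The difference between the lines of -0.36 (SE 0.12) did not pass (limma adjusted p = 0.26), but it did without the library labelled Dnmt3a control replicate 2, at -0.46 with an adjusted p of 0.062. Beside Fgfr3, all 10 other astrocyte markers had a positive log2 fold change in the Dnmt3a line (median 0.11), although none was called. The median over all rows was 0.007. Of 8 microglia markers 7 were positive there (median 0.11), and of 8 neuronal markers 5 were (median 0.03). The sum of the 10 astrocyte markers ranged from 912 to 944 FPKM without and from 983 to 1051 with the deletion, and their part in the Fgfr3 values was not tested. In the Dnmt1 line 1 of these 10 was called, Gfap, an intermediate filament of astrocytes. It rose by 0.45 (SE 0.04, limma adjusted p = 0.0065, n = 3 and 3). The sums of the 10 markers were 907 to 939 in the controls and 901 to 919 in the CKO.

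Fgfr1, the FGF receptor that neurons also express (chromosome 8, 25513654 to 25575718, plus strand), had levels of 10.9, 9.73 and 9.58 FPKM (control) and 10.4, 10.8 and 10.5 (CKO) in the Dnmt1 line. Those of the Dnmt3a line were 11.4, 10.2 and 10.1 (control) and 10.9, 11.7 and 9.44 (CKO). All of these ranges overlapped. Log2 fold changes were 0.07 (95% interval -0.06 to 0.21) in the Dnmt1 line and 0.01 (95% interval -0.21 to 0.24) in the Dnmt3a line. In the Dnmt1 line Fgfr2 thus went from 13.4% ± 0.6 to 10.6% ± 0.6 of the summed FPKM of the 3 FGF receptors, Fgfr1 from 28.0% ± 0.3 to 30.7% ± 0.3, and Fgfr3 stayed at 58.6% ± 0.3 and 58.7% ± 0.5.

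Igf1r, the receptor of insulin-like growth factors (chromosome 7, 67952827 to 68233668, plus strand), had 5.57, 5.57 and 5.32 FPKM in Dnmt1 control and 6.29, 5.71 and 6.10 in Dnmt1 CKO libraries. Every CKO library was above the controls, by 0.13 on the log2 scale (SE 0.05, 95% interval 0.00 to 0.27). The unadjusted p was 0.0497 and the limma adjusted p was 0.33, so it did not pass. The Dnmt3a line had 5.74, 5.59 and 5.74 (control) and 5.39, 5.71 and 6.05 (CKO), a log2 fold change of 0.01 (95% interval -0.14 to 0.15).

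The ligands are given by family. Of 11 ErbB ligands 6 were tested, and 1 fell in the Dnmt1 line, Hbegf, the heparin-binding ligand of Egfr and Erbb4. Its levels were 5.49, 4.46 and 4.82 FPKM (control) and 3.21, 3.65 and 3.68 (CKO), with no overlap. The log2 fold change of -0.47 (SE 0.10, limma adjusted p = 0.098, n = 3 and 3) did not pass without any 1 of the 6 libraries (adjusted p from 0.15 to 0.29). Its Dnmt3a line levels were higher in the CKO (5.36, 5.12 and 4.99) than in the controls (4.34, 4.63 and 4.86), at an adjusted p of 0.66. The difference between the lines of -0.63 (SE 0.11, limma adjusted p = 0.017) passed, and it stayed past the threshold without any 1 of the 12 libraries.

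The neuregulins did not pass in any comparison. Nrg3 was the most abundant, with means of 12.4 FPKM in both Dnmt1 groups (log2 fold change 0.00, 95% interval -0.13 to 0.13). Nrg1 was at 2.001 and 1.97 in the Dnmt1 line, and at 2.38 and 2.10 in the Dnmt3a line, where the ranges were apart (log2 fold change -0.17, limma adjusted p = 0.66, n = 3 and 3). Nrg2 was at 1.58 and 1.61 in the Dnmt1 line (log2 fold change 0.03) and at 1.495 and 1.65 in the Dnmt3a line (0.13). Egf, with group means of 0.160 to 0.232 FPKM, was too low to be tested.

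No FGF ligand was called, with 5 of 18 tested. Fgf1, which binds all FGF receptors, had 9.25, 8.99 and 8.11 FPKM in Dnmt1 control and 7.66, 7.76 and 7.80 in Dnmt1 CKO libraries. These did not overlap, but the log2 fold change of -0.18 (SE 0.06) did not pass (limma adjusted p = 0.24, n = 3 and 3). Fgf9 had means of 3.35 and 3.04 in the Dnmt1 line and of 3.27 and 3.54 in the Dnmt3a line (log2 fold changes -0.14 and 0.11). Fgf2, with group means of 0.371 to 0.553 FPKM, was under the filter.

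Of 12 IGF ligands and binding proteins 8 were tested, and 1 rose in the Dnmt1 line, Igfbp3, which binds IGFs outside the cell. Its levels were 9.08, 8.17 and 6.995 FPKM (control) and 11.6, 12.8 and 13.4 (CKO), all of the latter above the controls. Its log2 fold change was 0.64 (SE 0.11, limma adjusted p = 0.052, n = 3 and 3), and it did not pass without control replicate 2 or any 1 CKO library (adjusted p of 0.12 to 0.19). The ligands themselves, Igf1 at means of 2.77 and 2.67 FPKM and Igf2 at 32.4 and 30.6 in the Dnmt1 line, had log2 fold changes of -0.05 and -0.09. These were -0.02 and 0.04 in the Dnmt3a line.

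The remaining lists hold proteins of the cell surface and of the cascades inside the cell. Of 13 co-receptors and related receptors tested, 1 fell in the Dnmt1 line, Fgfrl1, an FGF receptor relative that lacks the kinase domain. Its levels were 4.06, 3.65 and 3.39 FPKM (control) and 2.32, 2.88 and 2.40 (CKO; log2 fold change -0.53, SE 0.11, limma adjusted p = 0.098, n = 3 and 3), and of the 6 libraries only CKO replicate 2 could be left out without losing this call (adjusted p of up to 0.29). Of 19 adaptors tested, 1 fell, Gab1, the docking protein between these receptors and PI3K. It had 5.24, 4.95 and 5.09 FPKM (control) and 3.28, 3.53 and 3.45 (CKO; log2 fold change -0.56, SE 0.06, limma adjusted p = 0.0079, n = 3 and 3), and passed without any 1 library. Gab1 also differed between the lines, by -0.56 (SE 0.10, limma adjusted p = 0.015), with means of 5.35 FPKM in both Dnmt3a groups.

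Of 15 genes of the RAS-ERK cascade, 1 rose in the Dnmt1 line, Ksr1, a scaffold of that cascade. Control libraries had 7.72, 7.27 and 7.32 FPKM and CKO libraries 9.13, 8.79 and 9.37. This log2 fold change was 0.29 (SE 0.05, limma adjusted p = 0.041, n = 3 and 3), and the call was lost without control replicate 2 or 3 or CKO replicate 1 or 3 (adjusted p of up to 0.19). No gene was called among 20 of the PI3K-AKT-mTOR cascade (median log2 fold change -0.05), 15 feedback inhibitors (-0.06) or 10 targets that respond to ERK (0.01).

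Over all of these lists 111 of 139 genes were tested, of which 2 rose and 3 fell in the Dnmt1 line. This is a share of 4.50% against 3.15% of all rows called in either direction, and the median log2 fold change was -0.03. Of the 111 genes, 0 passed in the Dnmt3a line with limma at an FDR of 10%, and 9 had an unadjusted p under 0.05, where 7.35% of all rows did. The difference between the lines was called for 2, Hbegf and Gab1 (1.80%, against 2.13% of all rows). Of the calls in the Dnmt1 line, those of Hbegf and Fgfrl1 were also lost with no filter on low values and with Xist as a covariate, and those of Igfbp3 and Ksr1 in 1 model of all 12 libraries, at limma adjusted p from 0.11 to 0.18.

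**Figure D4:**
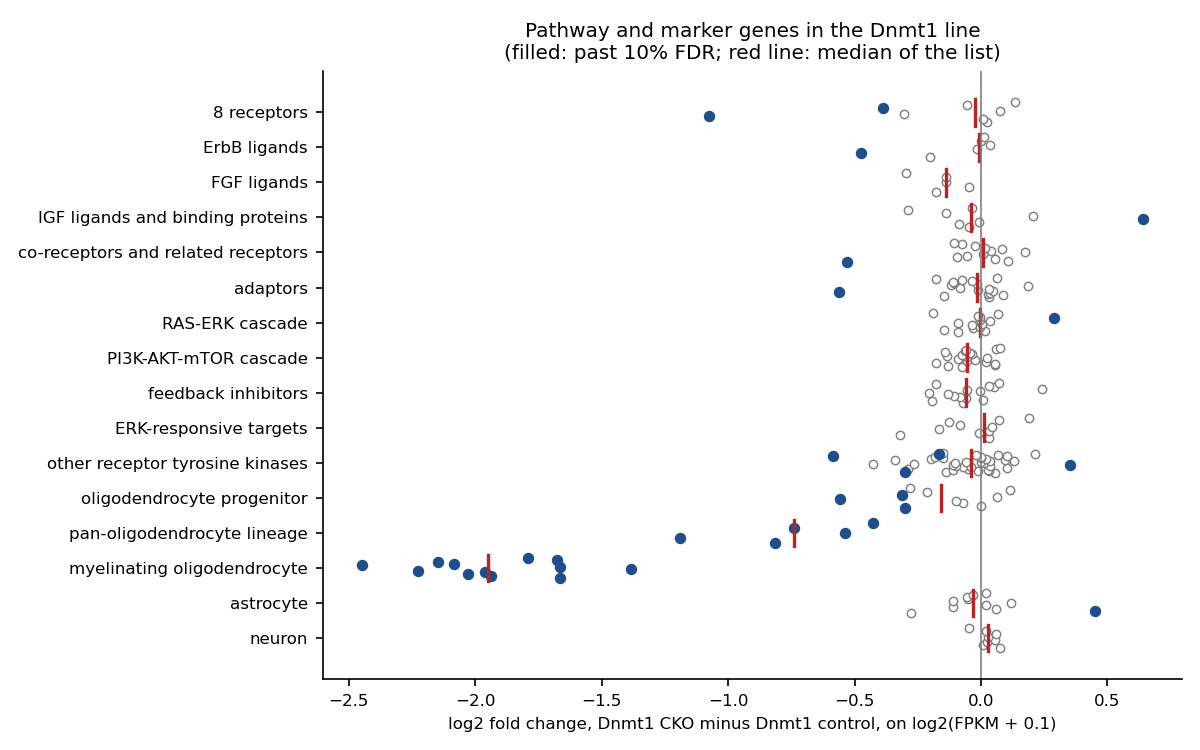
Log2 fold change in the Dnmt1 line, CKO minus control (x axis), of the receptors, of the genes of their pathway, of other receptor tyrosine kinases and of cell type markers (rows); each point is a gene, filled where it passed an FDR of 10%, and the red line is the median of the list. The pathway lists have medians between -0.14 and 0.01 and 5 filled points, while the 12 myelinating oligodendrocyte markers lie around their median of -1.95.

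Other receptor tyrosine kinases were compared in the same way. Of 50 listed, 39 were tested, and in the Dnmt1 line 3 fell and 1 rose, a share of 10.3% against 3.15% of all rows (2.3% lower and 0.85% higher). Ddr1, a collagen receptor, had 17.9, 17.0 and 16.6 FPKM (control) and 11.6, 11.7 and 11.0 (CKO; log2 fold change -0.58, SE 0.04, limma adjusted p = 0.0033, n = 3 and 3). It passed in all 19 alternatives, and it was the only one of the 39 whose knockout effect differed between the lines (-0.66, SE 0.08, limma adjusted p = 0.0011). This is a share of 2.56%, against 2.13% of all rows. Pdgfra, the PDGF receptor that marks oligodendrocyte progenitors, fell by 0.30 on the log2 scale (SE 0.05, limma adjusted p = 0.046, n = 3 and 3). Aatk fell by 0.17 (SE 0.02, limma adjusted p = 0.033, n = 3 and 3), and Mertk, a receptor for phagocytosis in glia, rose by 0.35 (SE 0.06, limma adjusted p = 0.065, n = 3 and 3). These last 3 calls were each lost without control replicate 2, CKO replicate 1 or CKO replicate 3. Pdgfra was also lost without CKO replicate 2, and Mertk without control replicate 1 or 3. With 1 library left out, limma adjusted p reached 0.19 (Pdgfra), 0.15 (Aatk) and 0.23 (Mertk). The log2 fold changes then ranged from -0.32 to -0.25 (Pdgfra), -0.18 to -0.16 (Aatk) and 0.32 to 0.40 (Mertk). Aatk was also lost in 1 model of all 12 libraries, at 0.15. No gene of this list was called in the Dnmt3a line, where 5 of the 39 had an unadjusted p under 0.05, against 7.35% of all rows.

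For each receptor the genes most like it across the 12 libraries were found by Pearson's r of log2(FPKM + 0.1) among 12852 symbols, as a description of these libraries, which share their groups. For Erbb3 these were Phldb1 (r = 0.98), Ttll7 (0.98) and Dip2a (0.98). With each group's mean subtracted, their r with Erbb3 was 0.24, 0.33 and 0.06, so the likeness lay in the means of the groups. Fgfr2 went with Cpm (0.99), a row whose symbol had been turned into a date (0.98) and Plekhb1 (0.98), and here r within the groups was 0.94, 0.83 and 0.85. Erbb4 went with 9830001H06Rik (0.92, and 0.90 within the groups), Pdgfra (0.92 and 0.86) and Dok6 (0.91 and 0.85).

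For the other receptors r changed far less than for Erbb3 once the group means were subtracted. These r values are the highest among 12852 symbols over 12 libraries, and how high they would be by selection alone was not tested. Fgfr3 went with Ssfa2 (r = 0.95, and 0.92 within the groups), Oaf (0.94 and 0.87) and Mt1 (0.93 and 0.87). The first for Fgfr1 was R74862 (0.91 and 0.90), for Egfr A930013F10Rik (0.86 and 0.86), for Erbb2 Rhof (0.87 and 0.87) and for Igf1r Ccdc37 (0.86 and 0.75).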

How the data were processed

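RNA-seq libraries of mouse cortex (TruSeq, polyA RNA, about 250 ng total RNA) were aligned by the authors with TopHat to mm10 and quantified with Cufflinks. The authors deposited FPKM per gene symbol; tool versions, any scaling between libraries and the use of strand are not given in the sources used here. With no counts, no count model was run.

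Of 23850 deposited rows, 302 exact duplicates were dropped. Rows averaging 0.5 FPKM or more over the libraries were tested on log2(FPKM + 0.1) with limma 3.58.1 in R 4.3.3 (lmFit, eBayes with a trend, two-sided), each line by itself, with Benjamini-Hochberg adjustment over all 14115 rows and an FDR of 10%. Fold changes on this scale understate those of low genes. The difference between the lines was an interaction over all 12 libraries. The fits were tested on simulated data. The groups were taken from the sample labels, which call the libraries biological replicates.

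The text names all receptors, the pathway genes and other receptor tyrosine kinases called in any comparison, 10 ligands regardless of result, and the 3 genes most like each receptor among rows averaging 1 FPKM or more (for 4 receptors only the first). Pvalb and Gfap, markers called in the Dnmt1 line, were named after their values were seen. The receptors and all lists were chosen with earlier results of these data known. Alternatives are listed in the closing section. Positions come from GENCODE M21 (GRCm38, the assembly of mm10) and promoters from RefSeq. Python 3.11.15, numpy 2.4.6, pandas 2.3.3 and matplotlib 3.10.9 were used.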

Additional observations from a re-analysis of the deposited data

Results flagged for a closer look

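In each gene named here the knockout effect in the Dnmt1 line differed from that in the Dnmt3a line by limma's interaction test at an FDR of 10%. Among the receptors these were Erbb3, with a log2 difference of -0.79, and Fgfr2, with -0.48. Among the pathway genes and the other receptor tyrosine kinases they were Hbegf (-0.63), Gab1 (-0.56) and Ddr1 (-0.66). In all 5 the lower value was in the Dnmt1 line.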

How the results depend on the processing

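Each choice was varied alone: the pseudocount (1, 0.01), the filter (0.1 or 1 FPKM, none), the variance model (no trend, robust), the scaling (median ratio, quantile), covariates (replicate block, Xist), pooling of all 12 libraries in 1 model, the FDR (5%) and the libraries, each left out once. In the Dnmt1 line the 2 called receptors became 1 at 5% FDR, with the block and with Xist, and 1 without any 1 library. The 5 called pathway genes became 2 at 5% FDR, 3 with no filter and 0 with the block (1 to 4 without a library), and the 444 called rows became 263 at 5% FDR and 162 with the block (199 to 341). In the Dnmt3a line the 2 called rows became 1 at 5% FDR, a pseudocount of 1, a minimum mean of 1 FPKM, quantile normalization, the block, Xist and 1 model, and 17 with no filter (2 to 5). In the difference between the lines the 2 called receptors became 1 at 5% FDR (1 to 3 without a library) and the 2 pathway genes became 1 with the block (2 to 5). Signs turned for small, uncalled changes. Erbb2 in the Dnmt1 line was at -0.056 after quantile normalization and at -0.20 to 0.13 without a library, and Igf1r in the Dnmt3a line at -0.0046 after median ratio rescaling and at -0.035 to 0.046. Without a library, Egfr in the Dnmt1 line was at -0.016 to 0.057, Erbb4 in the Dnmt3a line at -0.15 to 0.010, Fgfr1 there at -0.054 to 0.10, and in the difference Erbb2 was at -0.27 to 0.053 and Fgfr1 at -0.026 to 0.13. The cause of these changes was not tested, beyond the fewer samples of the fits with a library left out. Same-numbered libraries did not deviate together over all rows (r from -0.08 to 0.04). These are deviations from the means of small groups, so this does not exclude a pairing. With the block Erbb3 kept its call in the Dnmt1 line (log2 fold change -1.07) and Fgfr2 had an adjusted p of 0.22. Erbb2 was not tested at a minimum mean of 1 FPKM. The deposited values hold no read counts, so what depth limits could not be computed for low genes such as Erbb2.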
